A study of Mus musculus with 16 samples.

Results

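The genes described here are 8 genes of MHC class II antigen presentation and of Langerhans cells, the dendritic cells of the epidermis, in wounds of WT and db/db mice. They were taken by name as H2-Aa, H2-Ab1, H2-Eb1, H2-DMa, H2-DMb1, Cd74, Ciita and Cd207, and every probe that RefSeq assigns to them was followed. These are 8 of 20833 gene names on the array and 9 of its 39429 probes, because H2-Ab1 has 2 probes and every other gene has 1. The WT group were female C57BL/6J mice with untreated wounds. The db/db group were female C57BLKS/J mice homozygous for the db mutation of the leptin receptor gene, which are obese and diabetic, with untreated wounds. The db/db + vehicle group received sesame oil on the wound daily, and mice of the db/db + estrogen group were given estradiol benzoate, an estrogen ester, in that oil. All mice were young adults with full-thickness punch wounds on the back, and RNA came from a homogenate of the whole wound with the intact skin around it. Each of the 4 groups has 2 arrays labelled day 7 and 2 labelled day 14 after wounding, which makes 16 arrays. The submitters call them biological replicates, and nothing used here says whether the 2 arrays of a group came from separate mice, so p-values measure the spread between these samples only. WT and db/db mice are of different inbred strains, so strain and diabetes cannot be told apart in any comparison between them. Days are given as labelled, since for H2-Ea, a class II gene described further on, the study's text and the labels differ over which arrays are of which day.

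MHC class II molecules are pairs of an alpha and a beta chain that carry peptides from engulfed material to the cell surface, where CD4+ T cells read them. H2-Aa and H2-Ab1 encode the chains of the I-A molecule, and H2-Eb1 encodes the beta chain of I-E, which pairs with the alpha chain from H2-Ea. Cd74 encodes the invariant chain, which occupies the peptide groove during assembly, and H2-DMa and H2-DMb1 encode the chains of the editor that replaces its remnant with a peptide. Ciita encodes the coactivator that switches these genes on. It does not bind DNA but joins proteins already bound to the X and Y boxes of class II promoters. Cd207 encodes langerin, the lectin of Birbeck granules, by which Langerhans cells of the skin are known. Mouse strains carry different class II haplotypes, and the b haplotype of C57BL/6 mice has a deletion that silences H2-Ea.

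Parts of 3 promoters are shown because the X and Y boxes are where Ciita acts. RefSeq promoters, from 250 bases before to 50 bases after the start, were at hand for 5 of the 8 genes, namely H2-Aa, H2-Eb1, H2-DMa, H2-DMb1 and Cd207. The Y motif searched was TGATTGG and the X motif was AACNGATG, with N for any base, on both strands, and the motifs do not overlap each other in the promoters shown. The Y motif was found in 3 of the 5 genes, H2-Aa, H2-Eb1 and H2-DMb1, and in 7.82% of the 32851 promoters in the table. The X motif was found in H2-Eb1 and H2-DMb1 and in 2.32% of all promoters. X followed by Y at a distance of 25 to 40 bases was found in 5 promoters of the whole table, those of H2-Eb1, H2-DMb1, H2-Eb2, H2-DMb2 and BC051142. These X letters were chosen after a search with a longer form, which marked the same members and was followed by Y in H2-Eb1, H2-DMb1, H2-Eb2 and Hnrnpa1. The windows below (build GRCm38.p6) begin 60 bases before the Y motif and end 20 bases after it, with the motifs in capitals:
H2-Aa, chr17:34287847-34287933, minus strand: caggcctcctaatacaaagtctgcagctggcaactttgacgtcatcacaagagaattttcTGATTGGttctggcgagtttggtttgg
H2-Eb1, chr17:34305746-34305832, plus strand: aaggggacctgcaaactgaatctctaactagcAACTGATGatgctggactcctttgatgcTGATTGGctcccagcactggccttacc
H2-DMb1, chr17:34153068-34153154, plus strand: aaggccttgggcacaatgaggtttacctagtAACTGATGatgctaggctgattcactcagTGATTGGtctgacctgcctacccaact

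From the first base of X to the first base of Y is 28 bases in H2-Eb1 and 29 in H2-DMb1. The Y motif begins 50 bases before the start of H2-Aa, 61 before that of H2-Eb1 and 63 before that of H2-DMb1. Neither motif was found in either promoter listed for H2-DMa or in that of Cd207, and the X motif was not found in that of H2-Aa. This says only that these letters are not there, and an X box spelled otherwise, in H2-Aa as well, would be missed. Among relatives, the promoters of H2-Eb2 and H2-DMb2 held both motifs, and those of H2-Oa and H2-Ob held the Y motif alone. The sequences are of the reference genome, and strain differences were not analysed here.

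Levels are given as log2 of the signal relative to the 75th percentile of the same array, so that a probe at 0 is as bright as that percentile. That percentile was a signal of 1091 to 2548, and the share of probes well above background was 70.1% to 79.0% per array. All 9 member probes were so on all 16 arrays, and 0 spots were saturated. Cd74 had a level of 4.32 and 3.94 on the WT arrays labelled day 7 and of 2.12 and 2.31 on the db/db arrays. On the arrays labelled day 14 it had 3.44 and 3.39 in WT and 2.14 and 1.94 in db/db. Thus the 4 db/db arrays lay below the 4 WT arrays. With vehicle, Cd74 had 2.92 and 4.41 on labelled day 7 and 2.74 and 3.54 on labelled day 14. With estrogen, it had 3.63 and 3.72 and then 2.49 and 2.63. Every treated array was thus above every untreated db/db array, and the vehicle arrays were far more scattered than the estrogen arrays. In order of the group means, WT on labelled day 7 came first (4.13 ± 0.27, SD, n = 2), then estrogen (3.67 ± 0.06) and vehicle (3.66 ± 1.05) of the same day, and WT on labelled day 14 (3.41 ± 0.03). The db/db + vehicle (3.14 ± 0.57) and db/db + estrogen (2.56 ± 0.09) groups of labelled day 14 followed, and the untreated db/db groups of labelled day 7 (2.21 ± 0.14) and 14 (2.04 ± 0.14) came last. Of neighbours in this order, the ranges overlapped between estrogen and vehicle of labelled day 7, between that vehicle group and WT of labelled day 14, between WT and vehicle of labelled day 14 and between the untreated db/db groups.

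**Figure D1:**
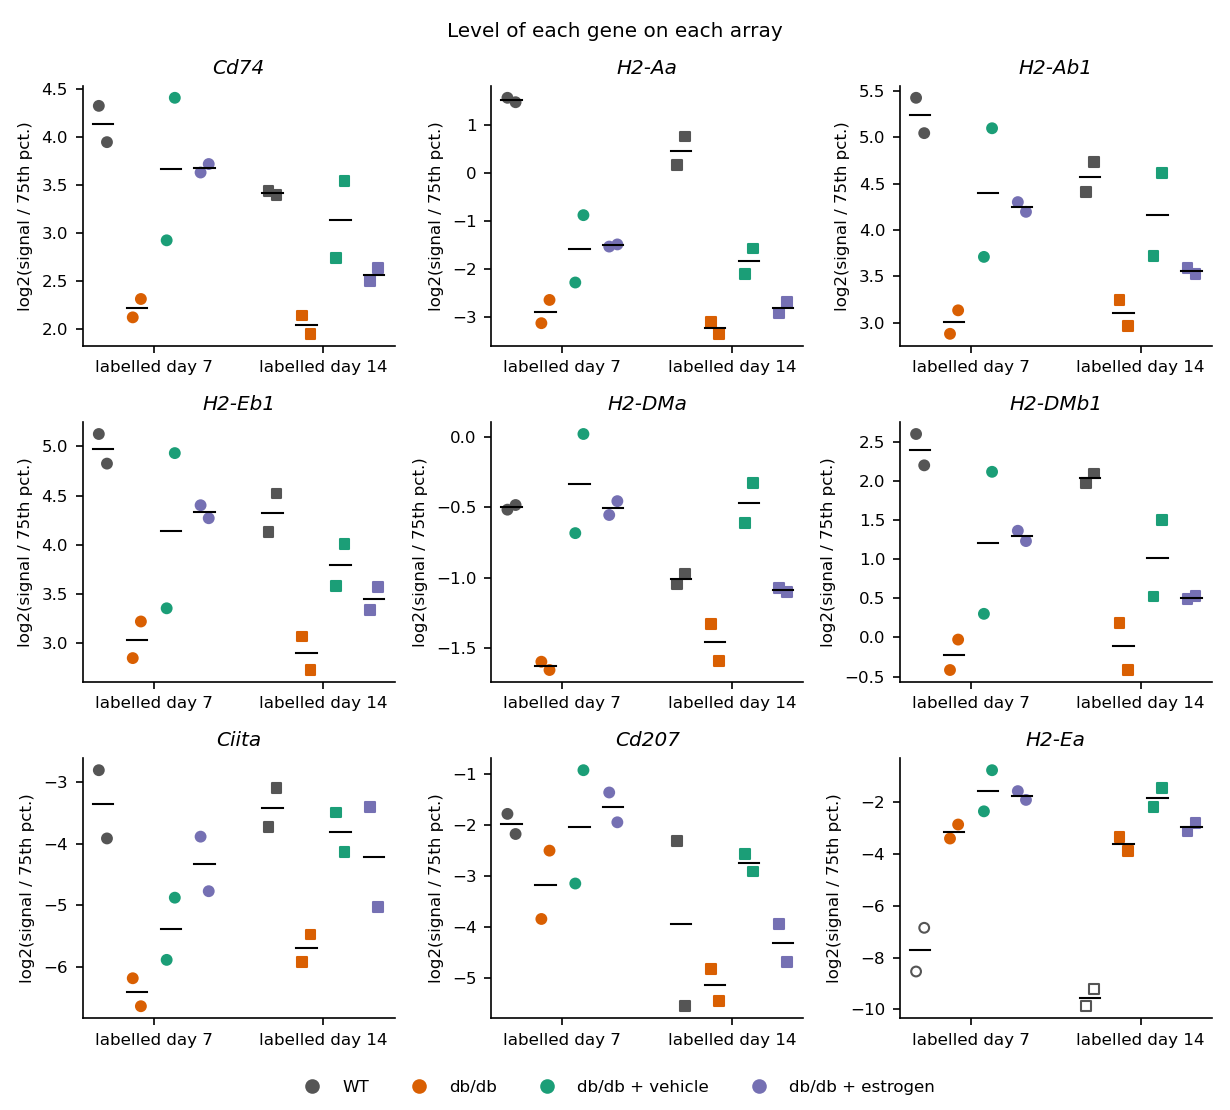
Level of the 8 genes and of H2-Ea on each of the 16 arrays, as log2 of the signal relative to the 75th percentile of the array, with circles for labelled day 7, squares for labelled day 14 and a bar at the mean of the 2 arrays of a group. H2-Ab1 is shown by its brighter probe, and open points mark probes not well above background, which are the 4 WT arrays of H2-Ea. Untreated db/db arrays are the 4 lowest for Cd74, H2-Ab1 and H2-Eb1, and db/db + vehicle on labelled day 7 is split between its 2 arrays.

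The comparison of db/db with WT asks which genes differ in the wound of the diabetic strain without treatment. On labelled day 7, 7 of the 8 genes were lower in db/db (unadjusted p below 0.05 and a fold change above 2, the thresholds of the study), against 8.42% of the 29746 probes tested. The same 7 also passed 0.05 after adjustment over all probes tested, against 4.88% of the probes. The median log2 difference of the 8 genes was -2.09, and that of all probes tested was -0.05. On labelled day 14, 6 genes were lower, and all 6 passed after adjustment, against 15.6% of 30278 probes by the first rule and 12% after adjustment. The median of the 8 genes was -1.45 there, and that of all probes -0.12. The arrays labelled day 14 were split by slide, with both db/db arrays on slide 3 and both WT arrays on slide 4, so that no value within a slide can be given. With slide as a fixed block, 3 genes remained called, H2-Aa, H2-DMb1 and Ciita. On labelled day 7 each slide held 1 array of each group, and all 9 probes were lower in db/db on both slides.

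Among the members, H2-Aa had the largest difference between db/db and WT on both labelled days. Its level was 1.56 and 1.47 in WT and -3.12 and -2.64 in db/db on labelled day 7. The arrays labelled day 14 had 0.17 and 0.76 in WT and -3.09 and -3.34 in db/db. The groups were thus far apart on both days, by 21.0-fold (log2 fold change -4.39, SE 0.40, limma adjusted p = 0.000301) and by 12.8-fold (-3.68, SE 0.40, adjusted p = 0.000553). H2-Ab1, which encodes the partner of H2-Aa, had 5.43 and 5.05 in WT and 2.88 and 3.13 in db/db on labelled day 7, by its brighter probe. At labelled day 14 it had 4.41 and 4.73 in WT and 3.25 and 2.97 in db/db. The difference was -2.23 (SE 0.41, adjusted p = 0.0091) and then -1.46 (SE 0.41, adjusted p = 0.0344), and the other probe of H2-Ab1 gave -2.30 and -1.46. H2-Eb1 had 5.13 and 4.83 in WT and 2.85 and 3.22 in db/db on labelled day 7, and 4.13 and 4.52 against 3.07 and 2.72 on labelled day 14. It was 3.85-fold lower in db/db (adjusted p = 0.0164) and then 2.69-fold lower (adjusted p = 0.0394).

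Among the genes for loading of peptide, Cd74 was lower in db/db by 3.79-fold on labelled day 7 (adjusted p = 0.0158) and by 2.59-fold on labelled day 14 (adjusted p = 0.0418). H2-DMb1 had 2.60 and 2.20 in WT and -0.42 and -0.03 in db/db on labelled day 7, and 1.97 and 2.09 against 0.19 and -0.41 on labelled day 14. It was lower by 6.14-fold (adjusted p = 0.0113) and then by 4.43-fold (adjusted p = 0.0185), while H2-DMa, the other chain of the same molecule, differed far less. H2-DMa had -0.52 and -0.48 in WT and -1.60 and -1.66 in db/db on labelled day 7, a difference of 2.18-fold (adjusted p = 0.00991). At labelled day 14 it had -1.05 and -0.97 in WT and -1.33 and -1.59 in db/db, which did not pass the test (log2 fold change -0.45, 95% confidence interval -0.92 to 0.02, adjusted p = 0.163).

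Ciita, which encodes the class II coactivator, had -2.81 and -3.92 in WT and -6.18 and -6.63 in db/db on labelled day 7, and -3.74 and -3.10 against -5.92 and -5.47 on labelled day 14. Ciita was thus lower on every untreated db/db array than on any WT array, by 8.24-fold (adjusted p = 0.0116) and by 4.85-fold (adjusted p = 0.0265). In untreated db/db it was dim, at 0.0118 and then 0.0193 times the 75th percentile, which limits how exact these folds are. Cd207 had -1.79 and -2.18 in WT and -3.84 and -2.50 in db/db on labelled day 7. In the later groups it had -2.31 and -5.54 in WT and -4.82 and -5.45 in db/db, so that the groups overlapped. Langerin passed the test on neither day (log2 fold change -1.19, SE 0.98, adjusted p = 0.454, and -1.20, SE 0.98, adjusted p = 0.415). The WT array with -5.54, replicate 2 of labelled day 14, was also low in the keratinocyte gene Krt1, with 3.56 against 6.14 on the other WT array, and in Epcam, with -1.69 against 0.28, genes picked after their values were seen. The summed level of the 6 keratinocyte genes, as a multiple of the 75th percentile, differed less, with 337 against 453. Their median log2 level was 3.56 against 6.29, a gap like that of Krt1. The part of these cells in the level of Cd207 was not tested. Without replicate 1 of that group, the difference of Cd207 turned to 0.41. In bulk RNA such as this, fewer cells of a type and less RNA per cell cannot be told apart. None of the 8 genes differed between the labelled days in its db/db to WT difference by the thresholds used (limma), where 9.39% of all probes did, with 1 gene, H2-DMa, at an unadjusted p below 0.05.

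**Figure D2:**
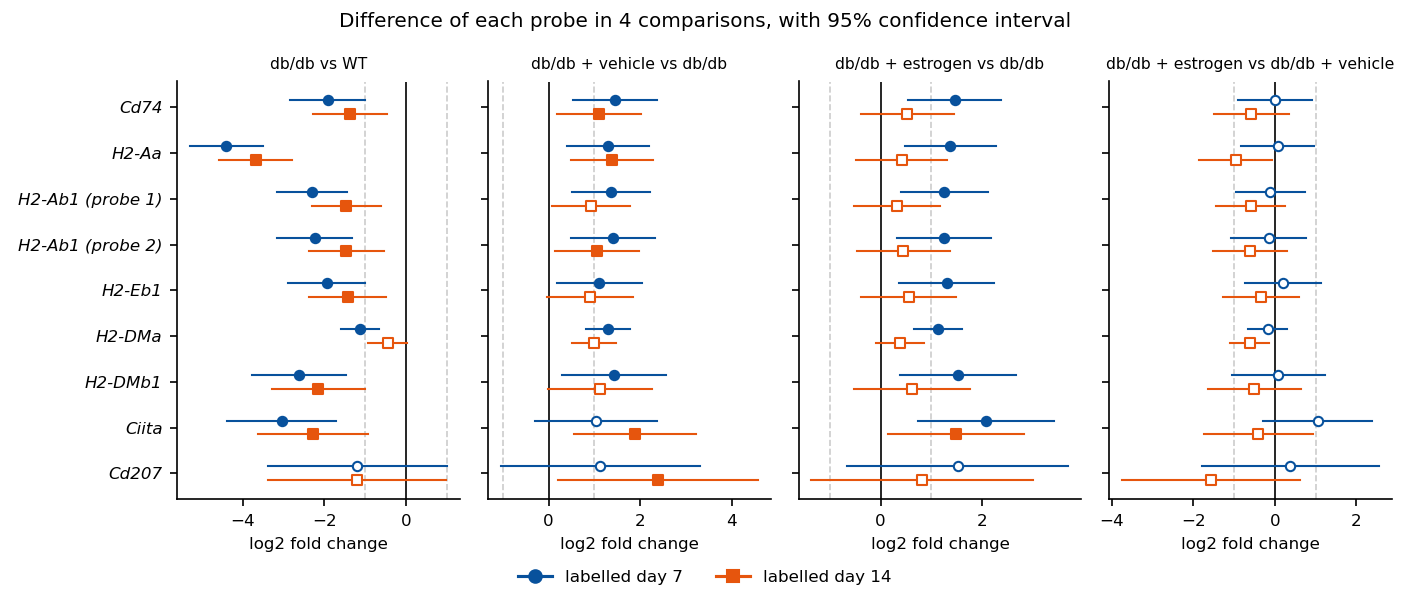
Log2 fold change of each of the 9 probes in 4 comparisons, with its 95% confidence interval from limma, circles for labelled day 7 and squares for labelled day 14. Filled points were called, with p below 0.05 before adjustment and more than 2-fold change, where the dashed lines stand. All filled points lie to the left for db/db vs WT and to the right for both treatments against db/db, and no point is filled for estrogen against vehicle.

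H2-Ea checks the strains. It was well above background on 0 of 4 WT arrays and on 12 of 12 arrays of db/db mice, treated or not. Its level in untreated db/db was -3.40 and -2.86 on labelled day 7 and -3.33 and -3.89 on labelled day 14. This was at least 11.01-fold higher than in WT on labelled day 7 and at least 13.5-fold on labelled day 14, where the bound for WT on each array is the higher of its own signal and the lowest signal of a probe well above background. The fitted tests had adjusted p = 0.0022 and 0.000452, but the probe entered them through the db/db arrays alone and so had to differ. Thus RNA of the I-E alpha chain was measured on every array of db/db mice and on no WT array, while the gene for its partner, H2-Eb1, was lower in db/db than in WT.

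The 2 probes of H2-Ab1 stayed close to each other in both strains, as their differences between db/db and WT show. The other members were set against Cd74 on the same array, which removes what changed to the same extent as Cd74 on that array. This was chosen after the values were seen. Relative to Cd74, H2-Aa lay between -3.26 and -2.47 on the log2 scale on the 4 WT arrays and between -5.41 and -4.84 on the 12 arrays of db/db mice. Thus H2-Aa was lower against Cd74 in the db/db strain by 2.40 on the log2 scale, in all 12 arrays and whatever the treatment (exact permutation test within labelled days, two-sided p = 0.00128, the smallest these arrays can give). H2-DMb1 had a level against Cd74 of -1.75 to -1.30 in WT and -2.62 to -1.95 in the db/db strain, and H2-DMa had -4.84 to -4.36 and -4.39 to -3.35. H2-DMb1 thus lay lower, and did not overlap, while H2-DMa lay higher with a small overlap. Within db/db mice, H2-DMa against Cd74 also varied with Cd74 itself. It was -4.39 on vehicle replicate 2 of labelled day 7, where Cd74 had 4.41. On the untreated arrays of labelled day 14 it was -3.47 and -3.54, where Cd74 had 2.14 and 1.94. The untreated arrays of labelled day 7 lay between, at -3.71 and -3.96. The shift of H2-DMa is thus not cleanly one of strain. The test was run for each of 8 probes, and H2-DMb1 and H2-DMa had the same smallest p of 0.00128. Adjusted by Benjamini-Hochberg over the 8, this exact p was 0.0034 for H2-Aa, H2-DMb1 and H2-DMa alike. The test took treated and untreated arrays of db/db mice as alike. Its p-values describe a separation that had already been seen and are not independent evidence of it. H2-Ab1 was lower against Cd74 by 0.34 (p = 0.0051) and 0.26 (p = 0.00765) with its 2 probes, both exact, with ranges that overlapped. H2-Eb1 had 0.69 to 1.13 in WT and 0.43 to 0.94 in the db/db strain. It did not pass the exact test (p = 0.17), nor did Ciita (p = 0.126) or Cd207 (p = 0.202), whose ranges overlapped too. Strain, diabetes and a difference in how a probe binds the alleles of the strains cannot be told apart here.

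**Figure D3:**
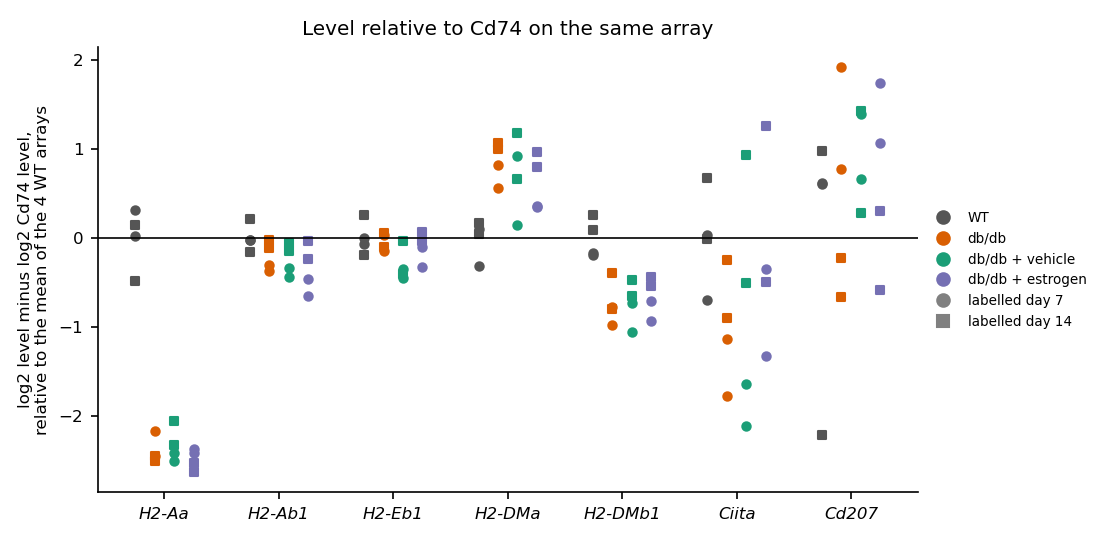
Log2 level of each gene minus the log2 level of Cd74 on the same array, relative to the mean of the 4 WT arrays, by group, with circles for labelled day 7 and squares for labelled day 14. H2-Aa lies lower on all 12 arrays of db/db mice than on any WT array, by 2.40 in the mean. H2-DMb1 is lower there, H2-DMa is higher with a small overlap, and Ciita and Cd207 scatter widely.

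The comparison of db/db + vehicle with db/db shows what the oil alone was accompanied by. On labelled day 7, 6 of the 8 genes were higher with vehicle, all but Ciita and Cd207, against 2.52% of the 29786 probes tested. None of them passed after adjustment, where 0.0369% of all probes did, and the lowest adjusted p was that of H2-DMa, 0.0571. The median log2 difference of the 8 genes was 1.30, and that of all probes 0.05. The 2 vehicle arrays stood far apart: replicate 1 had 3.71 for H2-Ab1, -2.28 for H2-Aa and 0.30 for H2-DMb1, and replicate 2 had 5.10, -0.88 and 2.11. Replicate 2 thus reached WT levels of Cd74, H2-Ab1 and H2-Eb1 (4.93, against 3.35 in replicate 1), but not of H2-Aa. Against Cd74, H2-Aa was at -5.28 on that array, within the range of the db/db strain given above. Without replicate 2 no member was called, and without replicate 1 of db/db 3 were. Replicate 1 was nonetheless above the db/db array on its slide for all 9 probes, by 0.30 for Ciita up to 0.91 for H2-DMa on the log2 scale.

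On labelled day 14, 5 genes were higher with vehicle than in db/db, against 5.31% of the 29043 probes tested, and none passed after adjustment, where 0.138% of all probes did. They were Cd74 (2.14-fold), H2-Aa (2.60-fold), H2-Ab1 (2.08-fold), Ciita (3.69-fold) and Cd207 (5.24-fold), with adjusted p between 0.145 and 0.25, while the other probe of H2-Ab1 gave 1.89-fold and was not called. Cd207 had -2.57 and -2.91 with vehicle against -4.82 and -5.45 in db/db, and Ciita had -3.50 and -4.13 against -5.92 and -5.47. H2-DMa missed the fold threshold at 1.99-fold. H2-DMb1 missed the p threshold (limma unadjusted p = 0.0526), and H2-Eb1 missed both (1.86-fold, limma unadjusted p = 0.0578). The vehicle arrays were on different slides, and both db/db arrays on slide 3. Within that slide the vehicle array was higher than the mean of db/db by 0.70 for Cd74, 1.11 for H2-Aa, 2.20 for Ciita and 2.56 for Cd207, and with slide as a fixed block 3 genes were called, H2-Aa, Ciita and Cd207. Without vehicle replicate 2 only 1 gene was called, and without db/db replicate 1 or 2 it was 3 or 2.

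The comparison of db/db + estrogen with db/db asks what differs with the treatment of interest. On labelled day 7, 7 of the 8 genes were higher with estrogen, all but Cd207, against 5.22% of the 30189 probes tested. After adjustment 1 gene passed, H2-DMa, against 2.22% of the probes. The median log2 difference of the 8 genes was 1.42, and that of all probes 0.04. H2-Aa had -1.53 and -1.48 with estrogen, well above the -3.12 and -2.64 of db/db and below the 1.56 and 1.47 of WT. Against Cd74 it was at -5.16 and -5.20 there, within the range of the db/db strain. H2-Ab1 had 4.30 and 4.20, H2-Eb1 had 4.40 and 4.27, and H2-DMb1 had 1.36 and 1.23, each between db/db and WT. H2-DMa had -0.56 and -0.46 and so lay at the WT level, higher than in db/db by 2.17-fold (adjusted p = 0.015). Ciita, with -3.89 and -4.77, had the largest difference, 4.22-fold (adjusted p = 0.0749), and Cd74 was higher by 2.75-fold (adjusted p = 0.0692). On each of the 2 slides, which held 1 array of each group, all 9 probes were higher with estrogen, by 1.41 to 1.51 for Cd74 and by 1.04 to 1.20 for H2-DMa. Without estrogen replicate 1 or db/db replicate 1, 4 genes were called.

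Cd207 had -1.37 and -1.95 with estrogen on labelled day 7, above both db/db arrays, but did not pass the test (log2 fold change 1.51, 95% confidence interval -0.67 to 3.69, adjusted p = 0.452). On labelled day 14 all 8 genes had higher means with estrogen than db/db, and 1 passed the threshold, Ciita, against 2.56% of the 28245 probes tested. Ciita had -3.41 and -5.03 there, 2.79-fold higher than db/db (adjusted p = 0.502), and without estrogen replicate 1, db/db replicate 1 or db/db replicate 2 no gene was called. No member passed after adjustment, where 0.0956% of all probes did. Within slide 3 the estrogen array was above the mean of db/db by 0.30 for H2-Aa, 0.45 for Cd74 and 2.29 for Ciita. The median log2 difference of the members was 0.54, and that of all probes 0.05. The difference between estrogen in oil and untreated db/db did not change between the labelled days past the thresholds for any member (limma), where 6.27% of all probes did, and 1 gene, H2-DMa, had an unadjusted p below 0.05 for this difference. The same test for vehicle called 0 members, where 2.81% of all probes were called, and 0 had an unadjusted p below 0.05. These comparisons share the untreated db/db arrays, so that a low value there raises both treatments at once.

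Estrogen against vehicle is the comparison that leaves the oil out. No member was called on either labelled day in limma, against 8.99% of 30150 probes called in either direction on labelled day 7 and 0.984% of 28975 on labelled day 14, and at an unadjusted p below 0.05 there were 0 members and then 2. On labelled day 7 the difference was 0.01 for Cd74 (95% confidence interval -0.91 to 0.92), 0.07 for H2-Aa (-0.82 to 0.96) and 1.05 for Ciita (-0.28 to 2.38). Intervals this wide do not show that estrogen and vehicle act alike. On slide 1 all 9 probes were higher with estrogen than with vehicle, and on slide 2 all but Ciita were lower. All 9 probes had lower means with estrogen than with vehicle on labelled day 14. Within slide 4 all 9 were lower too, and within slide 3 all but Ciita were. The 2 with an unadjusted p below 0.05 were H2-DMa, lower by 1.53-fold (adjusted p = 0.873), and H2-Aa, lower by 1.95-fold (adjusted p = 0.873). Cd207 had -3.94 and -4.68 with estrogen and -2.57 and -2.91 with vehicle, a difference of -1.57 on the log2 scale (95% confidence interval -3.75 to 0.61). The change of this difference between the labelled days called 0 members (7.16% of all probes), with 0 at an unadjusted p below 0.05, but without vehicle replicate 2 of labelled day 7 it called 5.

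Over the 12 arrays of db/db mice the members varied together, which is a description, since the arrays share groups. Pearson's r with Cd74 was 0.98 for H2-Aa, 0.98 for H2-Eb1, 0.97 for H2-Ab1, 0.96 for H2-DMb1 and 0.93 for H2-DMa. Cd207 had 0.84 and Ciita 0.42, the lowest r of the members. By r, the chain and DM genes stood at ranks 1, 2, 3, 5 and 9 of 15549 genes, Cd207 at rank 209 and Ciita at rank 3615. Ciita was dim, with a mean of 0.0118 times the 75th percentile in untreated db/db on labelled day 7. The part of noise at such levels in its r was not tested. Rank 4 was H2-Ea, with r of 0.96, and its level minus that of Cd74 kept between -5.84 and -4.93 on these 12 arrays. Over all 16 arrays, with the WT arrays where it was not measured, H2-Ea had r of -0.22. The other 9 genes most like Cd74 were Mesp2 (0.95), Xrcc3 (0.93), Cyp2j13 (0.93), Nipsnap1 (0.93), Miga2 (0.93), Smpd4 (0.93), Ctnnd2 (0.92), Itpka (0.92) and Mesp1 (0.92). Over all 16 arrays Xrcc3 had 0.93, Ctnnd2 0.92, Itpka 0.92 and Mesp1 0.90, and the other 5 lay between 0.58 (Mesp2) and 0.82 (Nipsnap1).

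**Figure D4:**
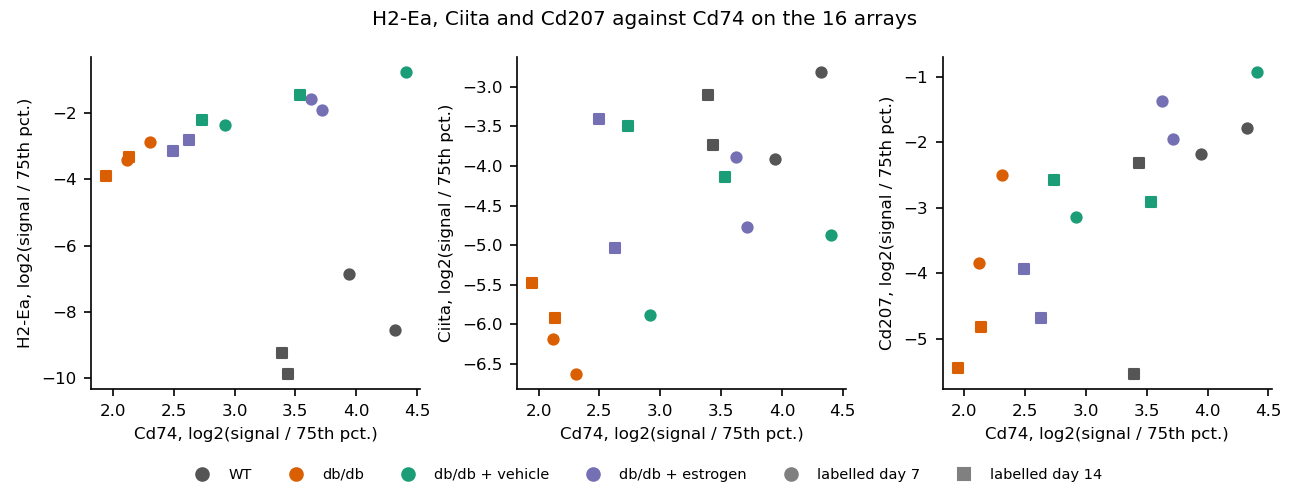
Level of H2-Ea, Ciita and Cd207 against that of Cd74 on the 16 arrays, on the log2 scale relative to the 75th percentile of the array. H2-Ea rises with Cd74 on the 12 arrays of db/db mice (r of 0.96) and is far lower on the 4 WT arrays, and Ciita scatters widely.

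The genes most like Cd207 over the same 12 arrays were other ones. They were Faah (r of 0.98), Marveld3 (0.97), Acpp (0.97), Lin7b (0.96), Socs4 (0.96), Sectm1a (0.95), Tlcd1 (0.95), Mill1 (0.95), Ano9 (0.95) and Il20rb (0.95). Of the members, H2-Aa was nearest at rank 147 (0.89) and Cd74 stood at rank 360. Cd207 and Ciita had an r of 0.29.

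The rest of the class II pathway was followed in 16 genes of accessory chains, endosomal proteases, ubiquitin ligases and costimulators. Values in parentheses, here and for the other lists, are log2 differences of genes past the thresholds of the study. In db/db on labelled day 7, 15 were tested, 4 were lower and 1 higher than in WT, where 8.42% of all probes were lower, and the median log2 difference of those tested was 0.35. The lower ones were Marchf1 (-3.14), the ligase that takes class II off the cell surface, the beta chain gene H2-Eb2 (-2.74), and H2-Ob (-1.52) and H2-Oa (-1.03), which encode the inhibitor of DM, and all but H2-Oa passed after adjustment. The higher one was H2-Ea. Labelled day 14 had 3 lower, H2-Eb2 (-3.88), Marchf1 (-2.25) and H2-Ob (-1.76), where 15.6% of all probes were lower, and H2-Ea was higher. H2-Eb2 was well above background on 1 of the 2 db/db arrays of labelled day 14. Its differences from that group, here and with the treatments below, are therefore not exact. With estrogen on labelled day 7, 3 were higher than in db/db, Marchf1 (2.19), H2-Ea (1.39) and H2-Eb2 (1.39), against 5.22% of all probes, and on labelled day 14 it was H2-Eb2 alone (1.72), against 2.56%. With vehicle, H2-Ea (1.57) and H2-DMb2 were higher on labelled day 7, against 2.52% of all probes, and H2-Eb2 (2.12), H2-Ea (1.79) and H2-DMb2 on labelled day 14, against 5.31%. Against vehicle, estrogen had higher Marchf1 (1.96) on labelled day 7 and lower H2-DMb2 on labelled day 14. H2-DMb2, well above background on 6 arrays only, was so on no untreated db/db array and on no estrogen array of labelled day 14. By the bound used for H2-Ea, it was at least 2.10-fold higher with vehicle than in db/db on labelled day 7 (adjusted p = 0.133) and at least 1.57-fold on labelled day 14 (adjusted p = 0.136), where it was at least 1.46-fold lower with estrogen than with vehicle (adjusted p = 0.873). In each of these tests H2-DMb2 entered through the vehicle arrays alone and so had to differ. None of these differences with treatment passed after adjustment.

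Of 16 genes that regulate class II, the factors that bind X and Y (Rfx5, Rfxank, Rfxap, Nfya, Nfyb, Nfyc and Creb1) passed no threshold between db/db and WT. On labelled day 7, 2 of the 16 were lower and 1 higher, where 8.42% and 5.67% of all probes were, and after adjustment 0 and 1 were (limma). On labelled day 14, 1 was lower and 1 higher, where 15.6% and 2.35% of all probes were, and both passed after adjustment. Ifng, which encodes the interferon that induces Ciita, was 1 of the 2 lower in db/db on labelled day 7 (-2.55, limma adjusted p = 0.0848). It was also the lower one on labelled day 14 (-3.57, limma adjusted p = 0.0211). There it was well above background on 1 of the 2 db/db arrays, so that -3.57 is not exact. Spi1, a myeloid transcription factor, was higher on labelled day 7 (1.95) and 14 (1.73). With estrogen on labelled day 7, Jak2 was lower than in db/db (-1.02, adjusted p = 0.0296), and Ifng did not pass the test. Vehicle replicate 2 of labelled day 7 had -3.38 for Ifng, where replicate 1 had -6.20 and the estrogen arrays had -5.52 and -6.26. Nfya was higher with estrogen than with vehicle on labelled day 7 (1.01, adjusted p = 0.136).

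Class I presentation, which shares interferon control with class II, was measured in 14 genes. Of these, 3 were lower in db/db than in WT on labelled day 7, Tap1 (-1.16) and, just past the fold threshold, H2-K1 and Nlrc5, the coactivator of class I genes, where 8.42% of all probes were lower, and 2 of the 3 passed after adjustment. At labelled day 14 it was Nlrc5 alone (-1.58), where 15.6% of all probes were lower. The medians of the 14 were -0.37 and -0.17. Tap1 was higher than in db/db with estrogen on labelled day 7 (1.09, adjusted p = 0.015) and with vehicle on labelled day 14 (1.11, adjusted p = 0.0702).

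Markers of cells that carry class II and of other cells of the wound also differed, and their part in the differences was not tested. Between db/db and WT on labelled day 7, the median log2 difference was 0.57 for the Langerhans cell list, -0.71 for dendritic cells, 1.13 for macrophages, 1.28 for B cells, -0.93 for T cells, -0.96 for keratinocytes and -0.50 for fibroblasts, where that of all probes was -0.05. Between estrogen and db/db on labelled day 7 it was -0.23, 0.67, -0.01, -0.45, 0.23, 0.69 and 0.19 in the same order, where that of all probes was 0.04. The Langerhans cell list of 10 genes is broad and also holds Il34, a growth factor gene of keratinocytes, so it does not count Langerhans cells. None of the 10 was lower in db/db than WT by the thresholds, where 8.42% of all probes were on labelled day 7 and 15.6% on labelled day 14. By sign alone, 6 lay higher and 4 lower on labelled day 7. Higher on labelled day 7 were Runx3 (1.42), Ly75 and Tgfb1 (1.08), where 5.67% of all probes were. On labelled day 14 it was Id2 (1.25), where 2.35% of all probes were higher. Of these genes, all but Ly75 passed after adjustment. Ly75 was well above background on 3 arrays only, among them both db/db but neither WT array of labelled day 7, and the bound gives no fold there. The other 9 were so on all 16 arrays, and the brightest was Csf1r, which macrophages express too. The summed level of the list, as a multiple of the 75th percentile, was 36.8 to 52.8 on the WT arrays and 53.7 to 68.8 on the untreated db/db arrays. With estrogen, Runx3 (-2.23) and Ly75 (at least 1.52-fold, adjusted p = 0.102) were lower than in db/db on labelled day 7, and against vehicle Runx3 (-1.82) and Cd24a (-1.22) were lower. Ly75 entered both of its tests through the db/db arrays alone and so had to differ. The summed level on labelled day 7 was 75.1 and 85.0 with estrogen, 70.8 and 66.9 with vehicle and 68.8 and 67.3 in db/db. Epcam, the adhesion molecule of Langerhans cells and of some keratinocytes, had 0.06 and 0.42 in WT and -1.93 and -0.62 in db/db on labelled day 7.

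Of 14 dendritic cell genes with a probe, 12 were tested and 4 were lower in db/db than in WT on labelled day 7, against 8.42% of all probes. These were Cd209a (-3.20), the cross-presenting cell receptor Clec9a (-2.86), the homing receptor Ccr7 (-2.02) and the growth factor receptor Flt3 (-1.70), and all 4 passed after adjustment, against 4.88% of all probes. Clec10a was higher (2.39). Mgl2 was lower (-1.12) and Clec10a higher (1.53) on labelled day 14. With estrogen on labelled day 7, 4 were higher than in db/db, Cd209a (4.24), Clec9a (2.04), Clec10a (1.96) and Irf4 (1.70), against 5.22% of all probes, of which Cd209a (adjusted p = 0.00635) and Clec10a (adjusted p = 0.0162) passed after adjustment. With vehicle it was Clec10a (1.01), and estrogen against vehicle had higher Cd209a (2.86, adjusted p = 0.0505) and Clec9a (1.82), which was well above background on 1 of the 2 vehicle arrays. Irf4 and Clec10a were higher than in db/db on labelled day 14 with estrogen (2.36 and 1.43) and with vehicle (1.94 and 1.20). The summed level on labelled day 7 was 54.8 and 42.7 in WT, 53.2 and 58.8 in db/db, 72.4 and 81.3 with vehicle and 115 and 127 with estrogen, with Mgl2 the brightest in WT and Clec10a elsewhere. The sum on labelled day 14 was 51.3 and 60.4 in WT, 56.8 and 51.1 in db/db, 74.5 and 95.9 with vehicle and 93.0 and 107 with estrogen. Xcr1 was well above background on 0 arrays and Ccl22 on 1. The study counts Cd209 antigens among markers of M2 macrophages, so Cd209a does not tell dendritic cells from macrophages here. A sum is weighted to its brightest gene, which was Clec10a on every array of db/db mice. Which cells these levels come from was not tested.

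Of 9 macrophage genes with a probe, 6 were higher and 2 lower in db/db on labelled day 7, where 5.67% and 8.42% of all probes were, and 4 and 2 passed after adjustment. Cd14 (3.34) and Cd163 were among the higher, and the lower were Cx3cr1 (-2.55) and Itgam (-2.03). Cd163 had a level of -0.95 and -1.72 in db/db and of -4.69 and, not well above background, -7.32 in WT. Labelled day 14 had 3 higher, Cd14 (2.71), Lyz2 (1.91) and Cd163 (1.89), against 2.35% of all probes, and Itgam was lower (-1.39). After adjustment, 2 of these passed, Cd14 and Lyz2. With estrogen on labelled day 7, Cd14 (-2.91), Lyz2 (-1.35) and Mertk (-1.11) were lower than in db/db, against 4.71% of all probes, with Cd14 alone past adjustment, and Itgam was higher (1.31), and with vehicle Cd14 (-1.12) and Mertk (-1.07) were lower. Cd14 was lower with estrogen (-1.41) and Cd163 higher with vehicle (1.67) on labelled day 14. Against vehicle on labelled day 7, estrogen had lower Cd14 (-1.79) and higher Itgam (1.30). The summed level was 29.9 to 50.5 on the WT arrays and 54.3 to 85.4 on the untreated db/db arrays, with Itgam, Mrc1, Cd14 or Lyz2 the brightest.

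B cell genes were dim, with a summed level of at most 1.38 on any array, Cd22 the brightest on all but 1, and Pax5 well above background on 6 arrays. In db/db, Cd79b was higher than in WT on labelled day 7 (1.38), and on labelled day 14 Cd79b was higher (1.05) and Blk lower, by at least 1.65-fold (adjusted p = 0.0113), with neither db/db array well above background, so that it entered the test through WT alone and had to differ. With estrogen, 2 B cell genes were lower than in db/db on labelled day 7, among them Ms4a1 (-1.46), against 4.71% of all probes. With vehicle there were also 2, Ms4a1 (-1.96) and Cd79b (-1.18). None of these passed after adjustment. Of 8 T cell genes, 4 were lower in db/db on labelled day 7, Cd3g (-2.25), Cd3d (-1.63), Cd2 (-1.20) and Lck (-1.06), against 8.42% of all probes, and 2 on labelled day 14, Cd3g (-1.53) and Cd8a, against 15.6%. After adjustment, Cd3g passed on labelled day 7 and none on labelled day 14. Cd8a was lower by at least 1.71-fold (adjusted p = 0.0505), with neither db/db array well above background, and so it also entered through WT alone. Cd3g was higher with estrogen on labelled day 7 (1.63, adjusted p = 0.131). With vehicle Cd2 was higher (1.01) and Cd4 lower (-1.06) on labelled day 7, and Cd4 lower (-1.002) on labelled day 14. Cd3g had -1.45 on vehicle replicate 2 of labelled day 7, as in WT (-1.20 and -1.50), and -3.47 on replicate 1. The summed level of the T cell list was 26.4 on that replicate 2 and 30.8 on replicate 1, the other way round. The median log2 level of the list was -0.34 on replicate 2 and -1.56 on replicate 1, the same way as Cd3g. The part of T cells in the class II levels of that array was not tested. The summed level of the T cell list was 21.1 to 48.6 on the untreated db/db arrays and 32.8 to 43.7 in WT, with Thy1 the brightest on every array.

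Of 6 keratinocyte genes, Ivl (-2.66) and Cdh1 (-1.32) were lower in db/db on labelled day 7, where 8.42% of all probes were. On labelled day 14 it was Cdh1 (-1.20), where 15.6% of all probes were lower, and of these Ivl alone passed after adjustment. Their summed level was 179 to 343 on the untreated db/db arrays and 337 to 453 in WT, with Krt5 the brightest. With vehicle it was 391 to 517. With estrogen it was 433 and 335 on labelled day 7 and 474 and 248 on labelled day 14, where Krt1 had a level of 5.64 and 2.19 and Cd207 had -3.94 and -4.68, so that replicate 2 was the lower in each. In untreated db/db on labelled day 14 it was the other way round, with sums of 179 and 343 and Cd207 at -4.82 and -5.45. WT on labelled day 7 also went the other way, with 394 and 401 against -1.79 and -2.18. In the remaining groups the sum and Cd207 were lower on the same replicate. The part of keratinocytes in the level of Cd207 was not tested. The estrogen replicates of labelled day 14 had the lowest correlation of the 8 groups, 0.979. Cdh1 was higher with vehicle on both labelled days (1.20 and 1.45), Krt14 on labelled day 14 (1.04), and Krt5 with estrogen on labelled day 7 (1.06). Of 5 fibroblast genes, Pdgfra was called, higher in db/db on labelled day 7 (1.07), where 5.67% of all probes were. No other comparison within a labelled day called any of the 5, which are too few to set against the shares of all probes.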

How the data were processed

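RNA of 16 wound samples was hybridised to 1-colour Agilent mouse arrays, and groups were taken from the labels. The deposited scanner files hold 1 intensity per spot (gProcessedSignal), which the authors obtained with Agilent Feature Extraction 11.0.1.1. The deposited series table, normalized and filtered by the authors in GeneSpring, holds the ratio of each signal to the 75th percentile of its array, and served as an alternative. Of each array, log2 intensity minus the log2 75th percentile was taken over 39429 probes, with control and outlier spots left out and repeated spots averaged. RefSeq named 27427 probes.

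The values were fitted with limma 3.58.1 (R 4.3.3) over all 16 arrays and 8 group means. A comparison tested the probes that both arrays of 1 or more of its groups measured well above background, and p-values were adjusted by Benjamini-Hochberg over the probes tested. A call is an unadjusted p below 0.05 and a fold change above 2, and a gene with several probes counts by the brightest. The code was tested on simulated data. The members and lists were chosen with earlier results of these data known. Named were all members, H2-Ea in every group as a check on strain, up to 4 called genes with the largest change per list and comparison (apart from some genes not reported here), and the 10 genes most like Cd74 and like Cd207; other genes (Krt1, Epcam and, per array, Ifng and Cd3g) were named after their values were seen. Alternatives were normexp background correction, quantile normalization, other filters and floors, the series table, slide and replicate blocks (statmod 1.5.0), fits on the arrays compared, the dimmest probe and leaving out arrays. Precision is limited by 2 arrays per group.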

Additional observations from a re-analysis of the deposited data

How the results depend on the processing

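The 7 genes lower in db/db than in WT on labelled day 7 stayed 7 under every alternative, and the 6 of labelled day 14 were 3 with slide as a fixed block and 6 or 7 with 1 array left out. With Benjamini-Hochberg adjustment, estrogen against db/db had 1 gene on labelled day 7 and 0 on labelled day 14, and vehicle against db/db had 0 on both. Estrogen against db/db on labelled day 14 fell from 1 gene to 0 with normexp, quantile normalization, slide as a random block or only the arrays compared. Vehicle against db/db had 3 genes on labelled day 14 with slide as a fixed block, and 1 on labelled day 7 with only the arrays compared, where estrogen against vehicle had 1 on labelled day 14. With 1 array left out, estrogen against db/db had 4 to 7 genes on labelled day 7 and 0 to 1 on labelled day 14. Vehicle against db/db had 0 to 6 and 1 to 5, and estrogen against vehicle had 0 on labelled day 7 and 0 to 2 on labelled day 14, with 2 without vehicle replicate 1. The lone array of a group was then assumed to vary like the other groups. The difference between labelled days had 0 to 4 genes for vehicle against db/db (4 without vehicle replicate 1 of labelled day 7) and 0 to 5 for estrogen against vehicle (5 without replicate 2). The cause of these changes was not tested.

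Directions turned mainly for estrogen against vehicle on labelled day 7. Leaving out 1 array gave -0.73 to 1.49 for Cd207, -0.82 to 0.99 for H2-DMb1, -0.73 to 0.75 for Cd74, -0.53 to 0.18 for H2-DMa, -0.63 to 0.77 for H2-Aa, -0.60 to 0.98 for H2-Eb1, and -0.78 to 0.56 and -0.85 to 0.54 for the probes of H2-Ab1, on the log2 scale. With quantile normalization the H2-Ab1 probes were at 0.101 and 0.0691. Elsewhere, Cd207 in db/db against WT on labelled day 14 went from -2.82 to 0.41, and Ciita in estrogen against vehicle on labelled day 14 from -1.21 to 0.41. The H2-Aa level against Cd74, whose alternatives were chosen after seeing the data, differed between strains by -2.25 with H2-Eb1 as reference, -2.10 with normexp, -2.29 with quantile normalization and -2.56 to -2.24 with 1 WT array left out.

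Same-numbered arrays did not regularly deviate together (correlations of -0.45 to 0.39), so the numbers were not taken to pair samples. On labelled day 7 they do follow the slide, with replicate 1 arrays on slide 1 and replicate 2 arrays on slide 2. With a replicate block the counts were 7 and 6 for db/db against WT, 7 and 1 for estrogen against db/db, 6 and 5 for vehicle against db/db and 0 and 0 for estrogen against vehicle, as without the block.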
